A study of Mus musculus with 21 samples.

Results

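The BCR signaling core was taken as 9 genes, Cd79a, Cd79b, Cd81, Lyn, Syk, Btk, Blnk, Plcg2 and Pik3ap1, matched by GENCODE symbol among the 56953 genes counted in each library. All 9 were found, and all 9 passed the filter on low counts in every comparison, with the smallest count of any member in any library at 584 fragments for Pik3ap1 and the largest at 243739 for Cd79a. In GRCm39 coordinates with strand, the genes lie as Cd79a at chr7:24596806-24601622 (plus), Cd79b at chr11:106202167-106205588 (minus), Cd81 at chr7:142606476-142621671 (plus), Lyn at chr4:3678115-3813122 (plus), Syk at chr13:52737209-52802828 (plus), Btk at chrX:133443085-133484319 (minus), Blnk at chr19:40917371-40982978 (minus), Plcg2 at chr8:118225030-118361881 (plus) and Pik3ap1 at chr19:41260816-41373541 (minus), and the counts cover their exons. The study asked what global loss of TET2, an enzyme that oxidizes methylated cytosine in DNA, does to B cell subtypes of the mouse peritoneal cavity. Bulk RNA sequencing of sorted cells gave 21 libraries. These were B-1a cells from WT mice (n = 4) and TET2-KO mice (n = 4), B-1b cells from WT (n = 4) and TET2-KO mice (n = 3), and B-2 cells from WT (n = 2) and TET2-KO mice (n = 4). All mice were C57BL/6, and the TET2-KO allele lacks exons 8 to 10, which encode the catalytic region, in every cell of the animal, so that any cell type of the mouse may contribute to a difference. The study calls its mice young; their exact age was not given in the sources used here. Sorted B-1 cells were low for IgD, CD23 and B220, with CD5 dividing B-1a (CD5+) from B-1b (CD5-) cells.

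The BCR is a membrane immunoglobulin that carries no signaling domain of its own and depends on the CD79A and CD79B chains, whose cytoplasmic tails are phosphorylated after antigen binding. LYN starts that phosphorylation, SYK docks on the tails and phosphorylates the adaptor BLNK, and BLNK brings BTK to PLCG2, the lipase that releases calcium. CD81 is a tetraspanin of the B cell coreceptor complex, and PIK3AP1, also called BCAP, couples the BCR to PI3K. B-1a cells are known for weak calcium responses to BCR engagement compared with B-2 cells.

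Levels are given as CPM, fragments per 1000000 after TMM scaling over the 21 libraries, and levels of different genes were compared only as CPM per kb of exon. By that measure the receptor chains stood far above the signaling enzymes. The median over 21 libraries was 6809 CPM per kb for Cd79a and 3716 for Cd79b. It was 167 for Cd81, 144 for Lyn, 75.6 for Blnk, 62.7 for Syk, 51.8 for Btk, 42.1 for Plcg2 and 10.6 for Pik3ap1. Cd79a alone held 0.968% of all fragments counted on genes. The coefficient of variation over the 21 libraries ran from 16.6% for Blnk to 31.0% for Pik3ap1, beside a median of 21.5% among the 6387 genes with a mean of 20 CPM or more. Pik3ap1 varied more than 82.6% of those genes and Blnk more than 20.1% of them.

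**Figure D1:**
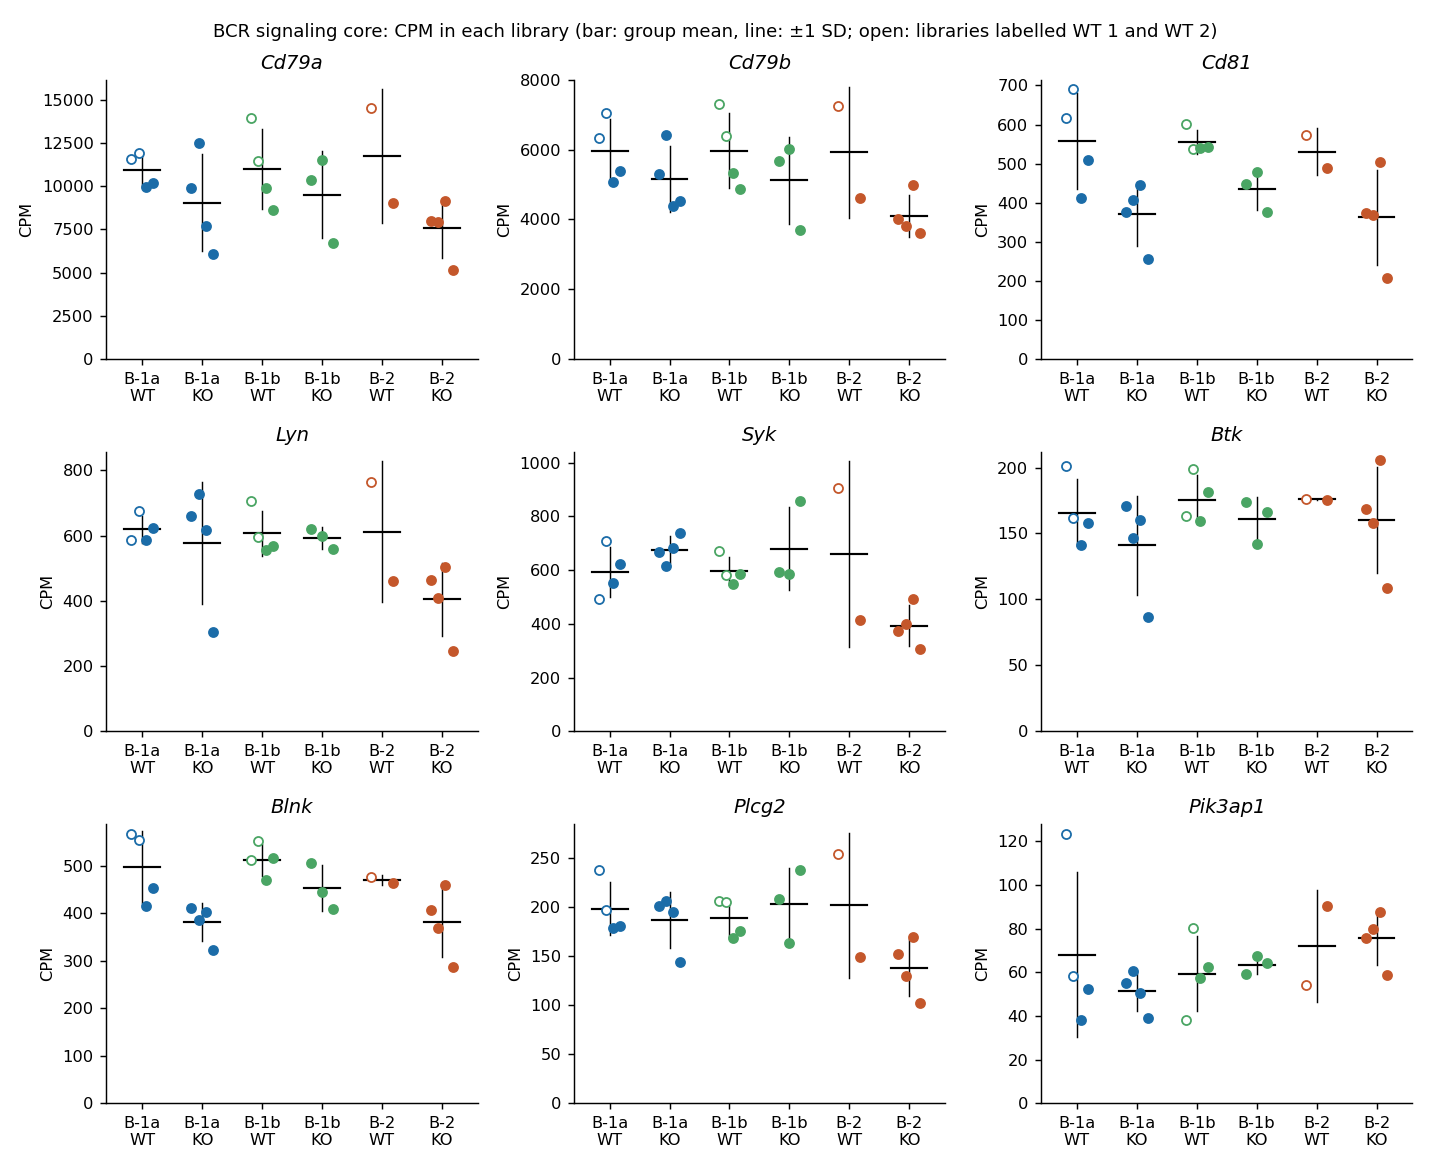
Level of each member in every library, in CPM on a linear axis from 0, by subset and genotype; bars are group means, lines ±1 SD, and open circles the libraries labelled WT 1 and WT 2. TET2-KO B-2 libraries lie between 307 and 492 CPM for Syk, below all TET2-KO B-1a and B-1b libraries, while the other members overlap between most groups.

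Some libraries stood apart from their labels, which bears on every comparison with WT. Fcer2a, which encodes the CD23 of mature B-2 cells, was at 815 CPM in the library labelled B-1a WT 1 and 598 CPM in B-1b WT 2. It was at 24.2 CPM in B-2 WT 1, against 484 to 834 CPM in TET2-KO B-2 libraries. Cd5, the marker that defines B-1a cells, was at 1.64 CPM in B-1a WT 2 and 18.7 CPM in B-1b WT 1, and at 15.9 to 22.7 CPM in the other B-1a libraries except B-1a WT 1 at 5.15. The 5 libraries labelled WT 1 or WT 2 were kept under their labels, and each comparison with WT was repeated without them. The B cell gene Ms4a1 was at 1183 to 5150 CPM in all 21 libraries. The 14 macrophage markers summed to 5074 to 35140 CPM, with Lyz2 at 3830 CPM or more in every library. The 8 T cell markers summed to 5.44 to 69.6 CPM. Total counts were 9667187 to 24152518, and the part of these features in the results below was not tested. Tet2 itself was at 8.46 to 27.2 CPM in WT and 12.6 to 30.3 CPM in TET2-KO libraries; counts over the whole gene do not check a deletion of 3 exons.

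Since TET2 acts on methylated CpG dinucleotides, the promoters of the members were read from the GRCm39 genome, from 250 bases before to 50 bases after the start of each gene's GENCODE vM39 canonical transcript. The window held from 0 CpG in Cd79b to 27 in Pik3ap1, beside a median of 11 over 21770 protein-coding genes. Cd79a had 6, Cd81 17, Lyn 13, Plcg2 20, and Syk, Btk and Blnk 3 each. Of all these promoters, 86.3% had fewer CpG than Pik3ap1 and 19.4% fewer than Syk. The windows of Syk, Cd79a and Lyn end before the start of the gene as counted. That of Syk lies furthest off, ending at 52736745 against a gene start of 52737209. The 250 bases upstream are shown for the receptor pair and for the kinase and adaptor whose levels differed most between subsets, 5′ to 3′ on the gene's strand, with CpG in capitals. They lie at chr7:24596490-24596739 (plus strand, Cd79a), chr11:106205589-106205838 (minus, Cd79b), chr13:52736446-52736695 (plus, Syk) and chr19:41373536-41373785 (minus, Pik3ap1).
Cd79a: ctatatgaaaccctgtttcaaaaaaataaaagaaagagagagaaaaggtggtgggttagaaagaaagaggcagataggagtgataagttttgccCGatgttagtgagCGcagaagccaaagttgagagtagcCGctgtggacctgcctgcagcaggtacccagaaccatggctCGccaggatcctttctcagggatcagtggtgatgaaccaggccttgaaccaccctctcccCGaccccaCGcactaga
Cd79b: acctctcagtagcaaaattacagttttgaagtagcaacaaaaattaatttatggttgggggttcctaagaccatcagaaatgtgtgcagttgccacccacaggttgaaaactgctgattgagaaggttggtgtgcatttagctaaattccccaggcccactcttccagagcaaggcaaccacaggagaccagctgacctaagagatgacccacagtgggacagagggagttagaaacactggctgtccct
Syk: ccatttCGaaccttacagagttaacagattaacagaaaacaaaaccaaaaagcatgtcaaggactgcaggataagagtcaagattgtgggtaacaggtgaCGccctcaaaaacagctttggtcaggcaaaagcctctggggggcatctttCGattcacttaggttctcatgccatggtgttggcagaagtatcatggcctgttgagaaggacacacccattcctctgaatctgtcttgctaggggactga
Pik3ap1: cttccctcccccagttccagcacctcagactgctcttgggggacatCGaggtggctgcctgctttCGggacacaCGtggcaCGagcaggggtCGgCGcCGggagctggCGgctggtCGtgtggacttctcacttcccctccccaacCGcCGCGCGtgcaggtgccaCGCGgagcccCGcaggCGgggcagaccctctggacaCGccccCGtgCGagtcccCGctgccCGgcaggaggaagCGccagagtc
The octamer ATGCAAAT, read on both strands over the 300 bases, was found in the Lyn and Blnk windows and in 1.63% of all promoters. The E-box CAGGTG was found once each in the Cd79a, Syk, Plcg2 and Pik3ap1 windows and in 20.6% of all promoters. Neither the palindromic EBF motif nor the ETS motif CCGGAAGT was found in a member's window, beside 1.05% and 4.35% of all promoters, and no window held 2 of these motifs. DNA methylation was not measured in these files.

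Loss of TET2 was compared first within B-1a cells, the subset with 4 libraries per genotype. In bulk libraries fewer cells of a type and less RNA per cell cannot be told apart. None of the 9 members passed an adjusted p of 0.05 (edgeR quasi-likelihood test, Benjamini-Hochberg over 13923 genes), where 0.0503% of all genes passed. At an unadjusted p under 0.05 there were 2 members, Cd81 and Blnk, beside 7.85% of all genes, and by DESeq2, run here and below on all genes with a count, 0 members passed the adjusted threshold. The fitted log2 fold changes of TET2-KO over WT had a median of -0.20 over the members and 0.02 over all genes, and 8 of 9 members were below 0. Of the genes with a mean of 20 CPM or more, 42.2% were above 0.

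Cd81, the tetraspanin, was at 618, 691, 412 and 509.5 CPM in WT B-1a libraries 1 to 4 and at 377, 407, 446 and 256 CPM in TET2-KO libraries 1 to 4. The 2 highest WT libraries, WT 1 and WT 2, are among those that stood apart, and TET2-KO library 3 exceeded WT library 3. The log2 fold change was -0.55 ± 0.21 (SE; 95% interval -1.01 to -0.09; edgeR adjusted p = 0.604). It was -0.30 ± 0.23 with WT 1 and WT 2 left out. Over the settings tried its adjusted p ran from 0.0410, when no filter on low counts was used, to about 1.

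Blnk, the adaptor between SYK and PLCG2, was at 568, 555, 415 and 453 CPM in WT and at 411, 387, 402 and 323 CPM in TET2-KO B-1a libraries. Every TET2-KO library was below every WT library, as for 3.38% of all genes in this direction, although the nearest libraries, WT 3 and TET2-KO 1, differed by few CPM. The log2 fold change was -0.35 ± 0.14 (95% interval -0.67 to -0.03; edgeR adjusted p = 0.622). It was -0.18 ± 0.16 without WT 1 and WT 2.

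Syk was the member with a fold change above 0 in B-1a cells, at 493, 708, 552 and 624 CPM in WT and 666, 615, 684 and 739 CPM in TET2-KO libraries. The genotypes overlapped, with a log2 fold change of 0.22 ± 0.15 (95% interval -0.11 to 0.55; edgeR adjusted p = 0.661). Lyn, the kinase that opens the cascade, was at 587 to 677 CPM in WT and at 660, 729, 617 and 305 CPM in TET2-KO libraries, and TET2-KO library 4 lay far below the rest. In that library 7 of 9 members were at their lowest of the group, Syk was at its highest, and the macrophage markers summed to 6268 CPM against 15144 to 33652 CPM in the other TET2-KO B-1a libraries. Cd79a was at 9975 to 11941 CPM in WT and 6053 to 12502 CPM in TET2-KO libraries, and Cd79b at 5066 to 7059 and 4380 to 6423 CPM. Their log2 fold changes were -0.24 ± 0.22 and -0.17 ± 0.18. Btk, the kinase mutated in X-linked immunodeficient mice, had -0.20 ± 0.20, Plcg2 -0.05 ± 0.15 and Pik3ap1 -0.37 ± 0.32. Plcg2 and Pik3ap1 were above 0 without WT 1 and WT 2, at 0.06 ± 0.18 and 0.19 ± 0.22, and Plcg2 was at 0.01 when scaled on genes of 20 CPM or more. Pik3ap1 was at 123 CPM in WT library 1 and at 38.1 to 58.4 CPM in the other WT libraries.

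**Figure D2:**
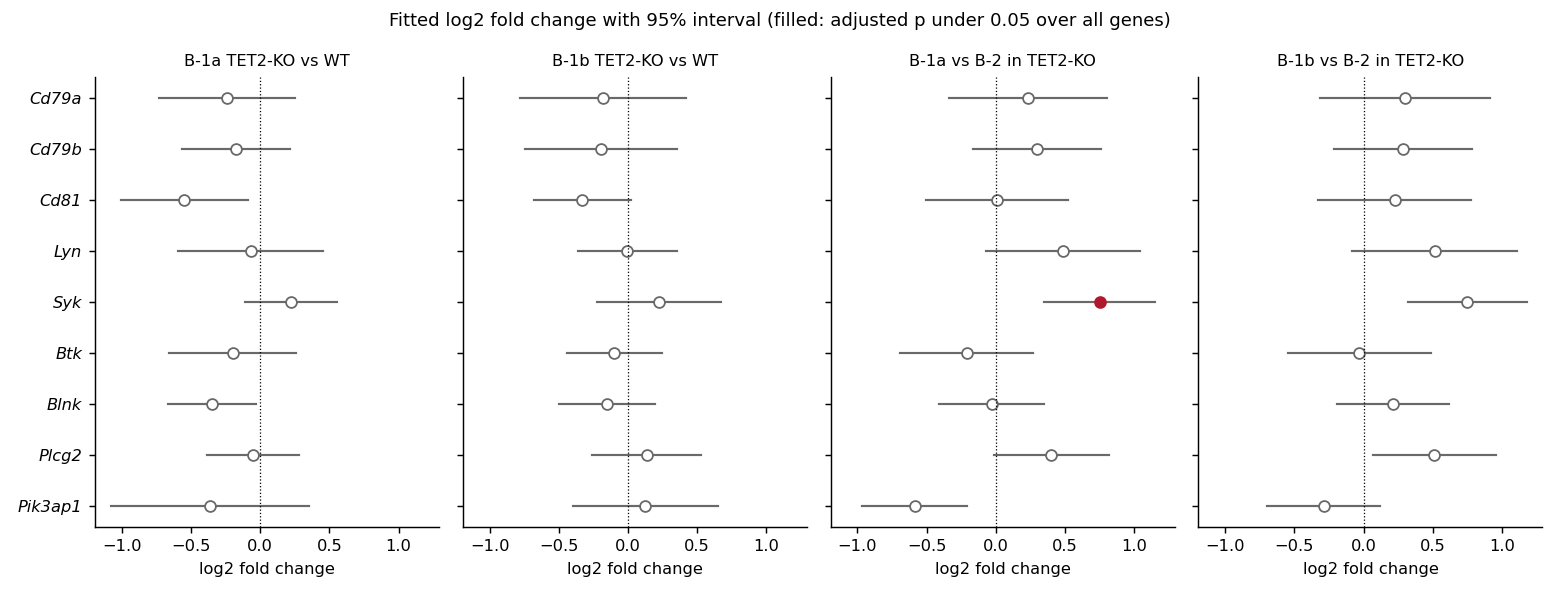
Fitted log2 fold changes (points) with 95% intervals (lines) of the 9 members in 4 comparisons; filled points passed an adjusted p of 0.05 over all tested genes. Syk in TET2-KO B-1a over B-2 cells, at 0.75, is the single filled point; the signs of Plcg2, Pik3ap1, Lyn, Cd79a, Cd79b, Cd81, Blnk and Btk near 0 turned in at least 1 of these panels under another scaling, fit or set of libraries.

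In B-1b cells 0 of 9 members passed, beside 0% of 14368 genes (edgeR), and 0 members had an unadjusted p under 0.05, beside 5.48% of all genes. DESeq2 called 0 members. The member furthest from 0 was again Cd81, at 601, 538, 541 and 542 CPM in WT libraries 1 to 4 and 447, 480 and 375 CPM in TET2-KO libraries 1 to 3. Each TET2-KO library was below each WT library, as for 3.93% of all genes, and the log2 fold change was -0.33 ± 0.16 (95% interval -0.68 to 0.02; edgeR adjusted p = 0.838). Without WT 1 and WT 2 it was -0.31 ± 0.18.

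The other members overlapped between genotypes in B-1b cells. Syk was at 548 to 672 CPM in WT and at 594, 587 and 859 CPM in TET2-KO libraries, a log2 fold change of 0.23 ± 0.20, and library 3 carries most of that difference. Lyn, at 555 to 708 CPM in WT and 558 to 622 CPM in TET2-KO libraries, had a log2 fold change of 0.00 ± 0.16 (95% interval -0.36 to 0.35), and 0.08 ± 0.17 without WT 1 and WT 2. Cd79a and Cd79b had -0.18 ± 0.27 and -0.19 ± 0.24, and without those libraries 0.04 ± 0.28 and 0.01 ± 0.26. Blnk had -0.15 ± 0.15, Btk -0.10 ± 0.15, Plcg2 0.14 ± 0.17 and Pik3ap1 0.12 ± 0.23.

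Whether TET2 loss acted differently in the B-1 subsets was tested as an interaction of subset and genotype. None of the 9 members passed (edgeR, 0% of 15972 genes; 0 members at an unadjusted p under 0.05, beside 1.57% of all genes; 0 by DESeq2). The differences ran from -0.50 ± 0.43 for Pik3ap1 (95% interval -1.41 to 0.41) to 0.01 ± 0.30 for Cd79b (95% interval -0.62 to 0.64). Without WT 1 and WT 2 they were 0.09 for Pik3ap1 and -0.02 for Cd79b. The intervals leave room for changes of over 1.5-fold in either direction for Cd79b.

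B-2 cells allowed the weakest genotype comparison, with 2 WT libraries of which B-2 WT 1 had 24.2 CPM of Fcer2a and B-2 WT 4 had 755. None of the members passed (edgeR, 0% of 19786 genes; 0 members at an unadjusted p under 0.05, beside 8.86% of all genes; 0 by DESeq2). The log2 fold changes ran from -0.72 ± 0.33 for Syk to 0.08 ± 0.27 for Pik3ap1, with 8 of 9 below 0, while 23.3% of genes at 20 CPM or more were above 0. Syk was at 904 CPM in B-2 WT 1 and 416 CPM in B-2 WT 4. Against B-2 WT 4 alone the log2 fold change of Syk was -0.06 ± 0.37 and that of Pik3ap1 was -0.24 ± 0.31, where the spread of the lone WT library was taken from the TET2-KO libraries. Blnk did not overlap, at 477 and 463 CPM in WT and 287 to 460 CPM in TET2-KO libraries, as for 7.24% of all genes in this direction, with a log2 fold change of -0.29 ± 0.25.

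The subsets were compared within TET2-KO mice, where the markers followed the labels in all 11 libraries. These comparisons share the TET2-KO libraries, which were fitted together. In B-1a over B-2 cells 1 of 9 members passed, beside 5.82% of 18555 genes and 8.69% of those with a mean of 20 CPM or more. Syk rose, and Pik3ap1 had the second largest difference, in the opposite direction, without passing. In all, 6 members were above 0, as were 72.8% of genes at 20 CPM or more. The median log2 fold change was 0.23 over the members and -0.05 over all genes tested. RLE size factors, TMM without immunoglobulin genes and TMM on genes of 20 CPM or more moved the median of all genes from -0.05 to -0.15, -0.12 and -0.24.

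Syk, the kinase that binds the phosphorylated CD79 tails, was at 666, 615, 684 and 739 CPM in TET2-KO B-1a libraries and at 373, 401, 492 and 307 CPM in TET2-KO B-2 libraries. The groups did not overlap, as for 8.90% of all genes in this direction, and the means were 676 ± 51.0 CPM (SD, n = 4) and 393 ± 76.7 CPM (SD, n = 4). The log2 fold change was 0.75 ± 0.19 (95% interval 0.35 to 1.15; edgeR adjusted p = 0.0285). It was 0.40 when all 21 libraries were fitted with subset and genotype as additive terms (adjusted p = 0.208), a fit that includes the libraries that stood apart, and 0.59 with TMM on genes of 20 CPM or more (adjusted p = 0.0553). Leaving out any one TET2-KO B-1a or B-2 library except B-2 TET2-KO 3 gave 0.66 to 0.81 with adjusted p-values of 0.0512 to 0.0919, each above the threshold of 0.05. Syk passed by DESeq2 (adjusted p = 0.00892), and by edgeR with RLE size factors (0.0364) and with TMM without immunoglobulin genes (0.0324). Of 20 settings, the reported one included, 11 called it. Genes with a count numbered 18941 to 28140 in TET2-KO B-1a, 17816 to 26360 in TET2-KO B-1b and 27669 to 35576 in TET2-KO B-2 libraries. The part of this difference in the level of Syk was not tested.

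Pik3ap1, the adaptor for PI3K, was at 55.1, 60.7, 50.7 and 39.2 CPM in TET2-KO B-1a libraries and at 75.6, 79.9, 87.4 and 58.9 CPM in TET2-KO B-2 libraries. The B-1a library with the highest level, TET2-KO 2, exceeded the lowest B-2 library, TET2-KO 4. The log2 fold change was -0.58 ± 0.18 (95% interval -0.96 to -0.21; edgeR adjusted p = 0.0672). The adjusted p was 0.00364 by DESeq2, 0.0205 with RLE size factors, 0.0317 with TMM without immunoglobulin genes and 0.00767 with TMM on genes of 20 CPM or more. It was 0.0405 without B-2 TET2-KO 4 and 0.0287 without B-1b TET2-KO 3, whose spread enters the shared fit. It did not pass in the fit of all 21 libraries (adjusted p = 0.242), without a filter on low counts (0.0977) or with additive subset and genotype terms, where the log2 fold change was -0.34 (adjusted p = 0.313). Of 20 settings, the reported one included, 7 called it.

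Lyn, at 660, 729, 617 and 305 CPM in TET2-KO B-1a libraries and 464, 407, 502 and 247 CPM in TET2-KO B-2 libraries, had a log2 fold change of 0.48 ± 0.26 (edgeR adjusted p = 0.264). Plcg2, at 145 to 206 and 102 to 170 CPM, had 0.40 ± 0.19 (edgeR adjusted p = 0.214). The receptor chains Cd79a and Cd79b had 0.23 ± 0.27 and 0.30 ± 0.22. Btk had -0.21 ± 0.22, Blnk -0.03 ± 0.18, with 0.04 in the additive fit, and Cd81 0.01 ± 0.24, with values from -0.14 to -0.05 under the other scalings. In library 4 of the TET2-KO B-2 cells all 9 members were at their lowest of the group. That library had 35576 genes with a count against 27669 to 33819 in the other TET2-KO B-2 libraries, and 5074 CPM of macrophage markers against 18717 to 23012. Its total count, 9667187, was the lowest of the 21 libraries, against 11364786 to 17903063 in the other TET2-KO B-2 libraries. The TMM factor was 1.54 against 1.04 to 1.25 in those. The part of these features in the member levels was not tested.

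In B-1b over B-2 cells 0 of 9 members passed, beside 2.15% of 18555 genes (edgeR). At an unadjusted p under 0.05 there were 2 members, Syk and Plcg2, beside 19.6% of all genes. Syk was at 594, 587 and 859 CPM in TET2-KO B-1b libraries, all above the B-2 libraries, with a log2 fold change of 0.75 ± 0.20 (95% interval 0.32 to 1.18; edgeR adjusted p = 0.0702). DESeq2 gave 0.67 (adjusted p = 0.0197), and the fit without a filter on low counts gave 0.72 (adjusted p = 0.0322). Additive subset and genotype terms gave 0.39 (adjusted p = 0.310), the fit of all 21 libraries 0.79 (adjusted p = 0.117), and leaving out B-1b TET2-KO 3 gave 0.51 (adjusted p = 0.203). Of 20 settings 3 called it. Lyn was at 622, 599 and 558 CPM, also above all B-2 libraries, with 0.51 ± 0.28 (edgeR adjusted p = 0.322). Syk and Lyn are the 2 members that did not overlap, and 7.99% of all genes did so in this direction. Plcg2 had 0.51 ± 0.21 (edgeR adjusted p = 0.202). Pik3ap1 was at 59.0, 67.3 and 64.1 CPM, with -0.29 ± 0.19 (edgeR adjusted p = 0.418). The remaining members had values from -0.03 for Btk to 0.30 for Cd79a.

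B-1a and B-1b cells, which differ in the CD5 used to sort them, were compared within each genotype. In TET2-KO mice 0 of 9 passed, beside 0.205% of 18555 genes (edgeR; 0 members at an unadjusted p under 0.05, beside 5.78% of all genes; 0 by DESeq2). The log2 fold changes ran from -0.29 ± 0.19 for Pik3ap1 (95% interval -0.70 to 0.11) to 0.02 ± 0.23 for Cd79b (95% interval -0.48 to 0.52). Syk had 0.00 ± 0.20 (95% interval -0.43 to 0.43). The libraries of the subsets overlapped for all 9 members, while 6.05% of all genes did not overlap. In WT mice 0 of 9 passed, beside 0% of 13800 genes (edgeR; 0 members at an unadjusted p under 0.05, beside 1.86%; 0 by DESeq2), with values from -0.09 ± 0.14 for Btk to 0.18 ± 0.35 for Pik3ap1. Without WT 1 and WT 2 the number of genes called in WT mice went from 0 to 500, of which 0 were members, and Pik3ap1 was at -0.40 ± 0.16 (edgeR adjusted p = 0.223).

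Syk and Pik3ap1 moved in opposite directions among libraries, and their ratio was examined after these values had been seen, as a description. Per kb of exon, Syk was 2.94, 2.99, 3.35 and 3.11 times the level of Pik3ap1 in TET2-KO B-2 libraries 1 to 4. It was 7.20, 6.03, 8.03 and 11.2 times that level in TET2-KO B-1a libraries and 5.99, 5.19 and 7.98 times in TET2-KO B-1b libraries. In WT B-1a libraries 1 to 4 the ratio was 2.38, 7.22, 8.63 and 7.08, and in WT B-1b libraries it was 10.5, 4.31, 5.71 and 5.61. It was 9.97 in B-2 WT 1 and 2.74 in B-2 WT 4. The libraries whose ratio went against the label were those whose Fcer2a did so. The 7 libraries with over 3000 CPM of the 6 B-2 markers had ratios of 2.38 to 4.31, and the 14 others had ratios of 5.19 to 11.2, whatever their labels. The cut at 3000 CPM lies in a gap without libraries, from 2460 to 3596 CPM. The pair was picked from these same libraries, so the split describes them and is not a test.

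**Figure D3:**
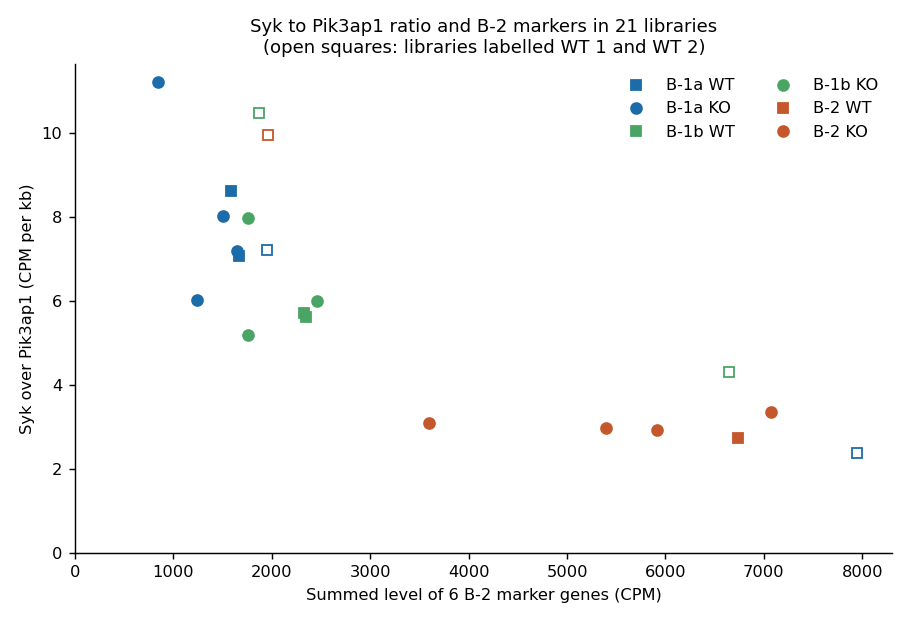
Ratio of Syk to Pik3ap1 (CPM per kb, y axis) against the summed CPM of 6 B-2 marker genes (x axis) in 21 libraries; squares are WT, circles TET2-KO, colors the labelled subset, and open squares the libraries labelled WT 1 and WT 2. The 7 libraries to the right of 3000 CPM lie between 2.38 and 4.31, and the 14 to the left between 5.19 and 11.2.

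CD79A and CD79B pair one to one in the receptor, and the ratio of their transcripts was compared per kb. Cd79a exceeded Cd79b in all 21 libraries, at 1.81 ± 0.12 times its level in WT B-1a (SD, n = 4), 1.70 ± 0.26 in TET2-KO B-1a (n = 4), 1.80 ± 0.064 in WT B-1b (n = 4) and 1.82 ± 0.057 in TET2-KO B-1b cells (n = 3). It was 1.92 and 1.97 in the WT B-2 libraries and 1.80 ± 0.29 in TET2-KO B-2 cells (n = 4). The lowest ratios were those of library 4 of the TET2-KO B-1a and B-2 cells, at 1.32 and 1.39. The log2 ratio was compared in 4 comparisons by two-sided exact permutation test. The differences were -0.11 for B-1a TET2-KO over WT (p = 0.571), 0.01 for B-1b TET2-KO over WT (p = 0.686), -0.09 for TET2-KO B-1a over B-2 (p = 0.514) and -0.11 for TET2-KO B-1a over B-1b (p = 0.629), each with a permutation p of 0.686 when adjusted over the 4. The smallest p such a test can give is 0.0286 for 4 libraries against 4 and 0.0571 for 4 against 3.

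**Figure D4:**
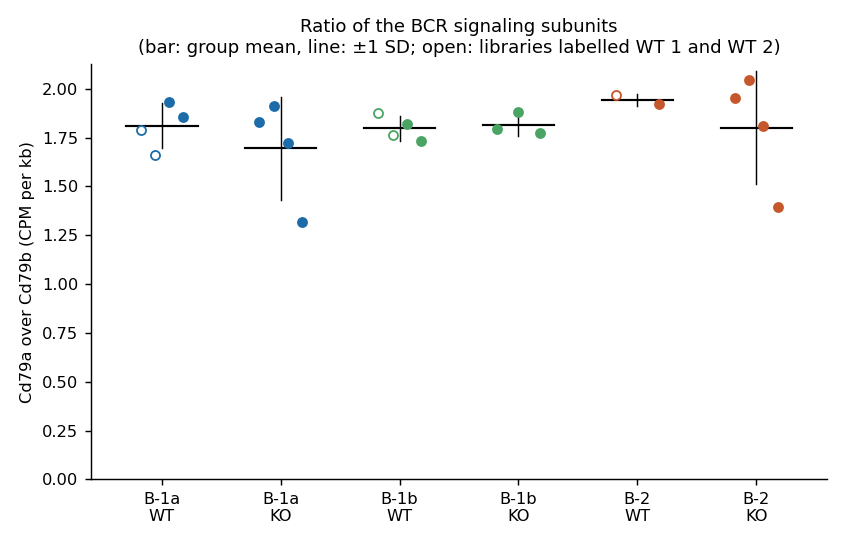
Ratio of Cd79a to Cd79b in CPM per kb (y axis, from 0) in each library by subset and genotype; bars are group means, lines ±1 SD, open circles the libraries labelled WT 1 and WT 2. All 21 libraries lie between 1.32 and 2.05, and the group means between 1.70 and 1.95.

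Across the 21 libraries the levels of most members moved together, as a description over libraries that share subset, genotype and library quality. Of 36 pairs of members, 32 had a Pearson r of log2 CPM above 0, with a median of 0.63. The highest was 0.94 for Cd81 with Blnk (Spearman rho 0.92), followed by 0.92 for Cd79a with Cd79b (rho 0.97), and the lowest was -0.46 for Syk with Pik3ap1 (rho -0.57). Among 8200 genes with a mean of 10 CPM or more, the pattern of Cd79a was most like those of Fth1 (r = 0.97) and Ly6e (0.96), and that of Cd79b most like those of Nip7 and Pebp1 (0.95 each). Cd81 was most like Ccny and Trp53 (0.96 each). Lyn was most like Serinc3 (0.98) and Atp6ap2 (0.96), and Syk most like Edem1 (0.96) and St3gal1 (0.94). Btk was most like Cdca4 (0.96) and Elmo1 (0.95), Blnk most like Eif4a3 (0.96) and Ppp1cc (0.95), and Plcg2 most like Mob1a (0.95) and Syvn1 (0.94). Pik3ap1 was most like Rnf157 (0.94) and Fcrl1 (0.91), a Fc receptor-like protein of B cells.

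The rest of the pathway was read from lists of 79 genes in 5 roles and 20 inhibitors. In B-1a and in B-1b cells 0 of these genes passed for TET2-KO over WT, beside 0.0503% and 0% of all genes. In TET2-KO B-1a over B-2 cells 7 of the 79 rose and 2 fell, beside 3.26% and 2.57% of all genes, the list median being 0.10 on the log2 scale against -0.05 over all genes. Of the 79, 45 were above 0. Among genes with a mean of 20 CPM or more, 72.8% were above 0 and 8.69% passed in either direction. Among coreceptors and receptor-proximal kinases 3 of 10 rose and 1 fell. Among these were the SRC family kinases Fgr (0.84 ± 0.23) and Blk (0.81 ± 0.19), and Cr2, the complement receptor CD21 (-4.12 ± 0.27, edgeR adjusted p = 6.97e-07), which is also 1 of the 6 B-2 markers. Fgr is also expressed by macrophages, whose markers summed to 6268 to 33652 CPM in TET2-KO B-1a and 5074 to 23012 CPM in TET2-KO B-2 libraries. Of 25 adaptors and PI3K genes 2 rose, of 14 calcium and NFAT genes 1 rose, and of 13 PKC and NF-kB genes 0 passed. In the RAS and MAPK list of 17, Rasgrp1 rose (0.78 ± 0.18) and Rasgrp3 fell (-2.89 ± 0.29, edgeR adjusted p = 1.71e-05), both exchange factors that activate RAS. The level of Rasgrp3 was 7.69 to 22.4 CPM in TET2-KO B-1a and 98.9 to 116 CPM in TET2-KO B-2 libraries.

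Of the 20 inhibitors 4 rose and 2 fell in TET2-KO B-1a over B-2 cells, beside 3.26% and 2.57% of all genes. The list's median log2 fold change was 0.32, against -0.05 over all genes. Of the 20, 16 were above 0, beside 72.8% of genes with a mean of 20 CPM or more. Among genes at that level, 8.69% passed in either direction. The largest differences were Cd5 (2.94 ± 0.30), which was used for sorting, the phosphatase gene Ptpn22 (2.03 ± 0.30, edgeR adjusted p = 0.000654) and Pag1 (-1.56 ± 0.33), a membrane adaptor for the kinase CSK. Ptpn22 was at 253 to 472 CPM in TET2-KO B-1a and 46.8 to 155 CPM in TET2-KO B-2 libraries. In TET2-KO B-1b over B-2 cells 2 of the 79 rose and 2 fell, beside 1.52% and 0.631% of all genes, among them Rasgrp1 (0.91 ± 0.19), Rasgrp3 (-2.02 ± 0.31) and Cr2 (-2.86 ± 0.29). Among genes with a mean of 20 CPM or more, 3.67% passed in either direction there. Of the inhibitors 1 rose and 1 fell, Ptpn22 (1.87 ± 0.32) and Cd72 (-1.49 ± 0.36), a lectin with an inhibitory tail. Between TET2-KO B-1a and B-1b cells 0 of the 79 passed and 1 inhibitor did, beside 0.205% of all genes, namely Cd5 (2.28 ± 0.33, edgeR adjusted p = 0.00834).

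**Figure D5:**
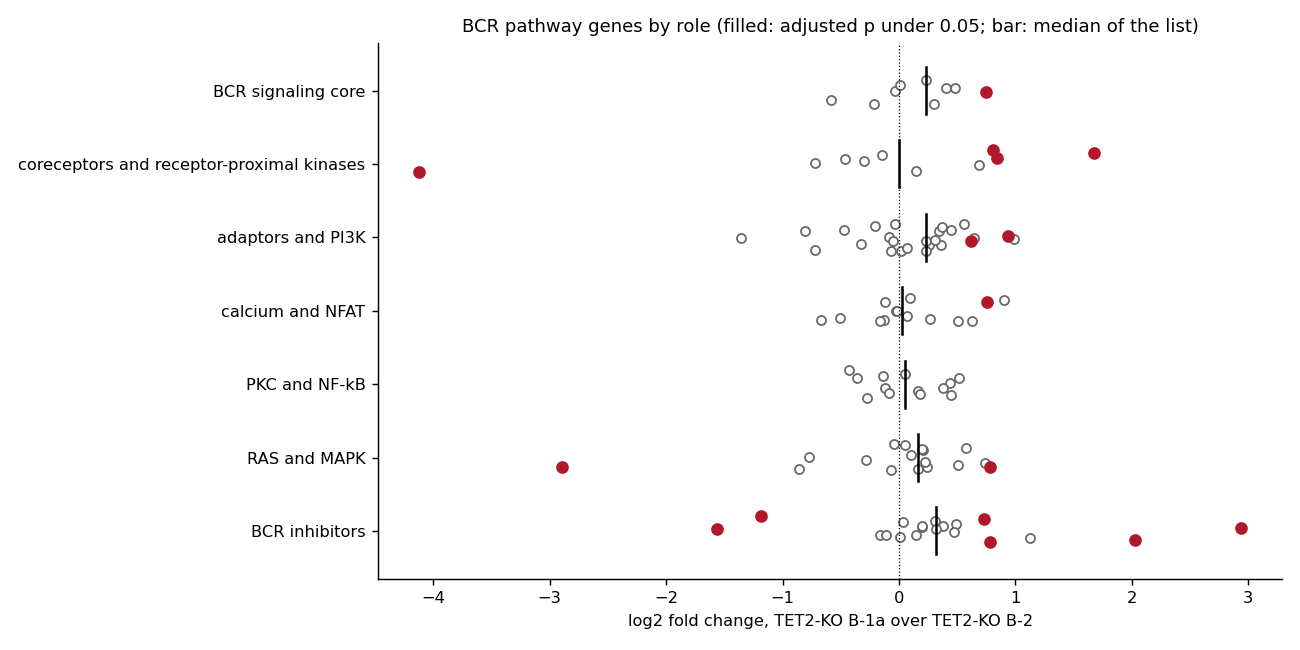
Log2 fold change in TET2-KO B-1a over TET2-KO B-2 cells (x axis) of the 9 members and of 6 lists of BCR pathway genes (rows); filled points have an adjusted p under 0.05 over 18555 genes, and bars are list medians. Most points lie within 1 of 0, Cr2 at -4.12 and Rasgrp3 at -2.89 lie furthest below and Cd5 at 2.94 furthest above.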

How the data were processed

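RNA of sorted peritoneal B cell subsets from WT and TET2-KO mice had been sequenced as 21 ultra-low input libraries. The study's methods describe full-length amplified cDNA and the labels poly-T selection. The authors trimmed reads with fastp, mapped them to GRCm39 with STAR and deposited fragment counts per gene from featureCounts 1.6.1 on GENCODE vM32, without strand; the versions of STAR and fastp were not given in the sources used here. Symbols came from GENCODE vM39 (56310 of 56953 genes), and genes overlapping a member lay on the other strand with at most 109 counts.

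The quasi-likelihood test of edgeR 4.0.16, run robustly under R 4.3.3 after TMM scaling and filterByExpr, was applied to the counts, with Benjamini-Hochberg adjustment at 0.05, one fit per comparison and the 3 TET2-KO groups in 1 fit, and checked on simulated counts. DESeq2 1.42.0 on all genes with a count and other fits were alternatives. The members and lists were chosen with earlier results of these data known. Named genes were the members, Tet2, at most 3 rising and 3 falling pathway genes per comparison with the largest change, called members of small lists, and per member the 2 genes most correlated over 21 libraries (prior count 2). Fgr, Blk, Rasgrp1 and marker genes were named after their values were seen. A gene that this rule names is not reported here. Intervals are 95%; p-values measure the spread between libraries, of which 210 pairs held 0 identical ones. Same-numbered WT B-1a and B-1b libraries deviated together (r of deviations 0.20 to 0.37), and among TET2-KO groups r ran from -0.11 to 0.22. Only same-numbered libraries were compared in this way. In WT a pairing by number therefore cannot be told apart from WT 1 and WT 2 standing apart from the rest.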

Additional observations from a re-analysis of the deposited data

Results flagged for a closer look

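Cd81 in the library labelled B-1b WT 1 was at 601 CPM, while the other WT B-1b libraries were at 538 to 542 CPM. Of 40 groups of 4 libraries examined, 1 held such a library, and chance gives about 1 in 20. B-1b WT 1 is among the libraries whose Cd5 level went against the label.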

How the results depend on the processing

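Of 765 recomputed log2 fold changes of members, 699 kept their direction and their side of the threshold, 46 changed sign, all of them without passing the threshold, 11 came past it and 9 fell short of it. The genotype comparisons stayed at 0 members called under every alternative run, except in B-1a cells without a filter on low counts, where Cd81 made 1. The cause of the shifts below was not tested.

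With DESeq2 on all genes with a count, which changed the tool and the filter together, the numbers of genes called were 189 for TET2-KO over WT in B-1a cells, 60 in B-1b and 169 in B-2 cells, 1 for the interaction, 3478 for TET2-KO B-1a over B-2, 2872 for B-1b over B-2, 141 for B-1a over B-1b in TET2-KO and 1 in WT mice. Members called were 2 for B-1a over B-2 and 1 for B-1b over B-2, and Cd81 in B-1a over B-2 was at -0.072. Genes with a count were 38366 for B-1a TET2-KO over WT and 44737 for both comparisons with B-2. Without a filter on low counts the numbers, in that order, were 318, 131, 167, 144, 1699, 870, 123 and 27, with 1 member for B-1a TET2-KO over WT (Cd81) and 1 for B-1b over B-2 (Syk). RLE size factors and TMM without immunoglobulin genes called 1114 and 1092 of 18555 genes for B-1a over B-2, each with 2 members among them. They put Cd81 there at -0.073 and -0.046. TMM on genes of 20 CPM or more, an alternative chosen after seeing the data, gave 3 genes for TET2-KO over WT in B-1a cells. It put Plcg2 there at 0.0089, Lyn in B-1b cells at 0.071 and Cd81 in B-1a over B-2 at -0.14. It moved the share of higher genes among those called from 55.9% to 41.7% in B-1a over B-2 and from 70.7% to 58.1% in B-1b over B-2. It moved the median of all genes from 0.18 to 0.42 in B-2 TET2-KO over WT and from -0.10 to -0.29 in B-1b over B-2.

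One fit of all 21 libraries gave 80 genes for B-1a TET2-KO over WT, 7 for B-1b over B-2, with Btk at 0.0059, and 6 for B-1a over B-1b in TET2-KO. Additive subset and genotype terms gave 22 genes and 0 members for B-1a over B-2, with Blnk at 0.043, and 0 genes for B-1b over B-2 and for B-1a over B-1b. The replicate block was a term for the number in the label. With it 48 genes passed for B-1a TET2-KO over WT and 1 for the interaction. Of 18555 genes, 1638 passed for B-1a over B-2 with 2 members and 667 for B-1b over B-2 with 1 member (Syk, 0.71). For B-1a over B-1b 103 passed in TET2-KO and 2 in WT mice. Pik3ap1 in B-2 TET2-KO over WT was at -0.036. Same-numbered WT B-1 and B-2 libraries also deviated together (r of deviations 0.20 to 0.58), on 2 numbers and in no comparison made here. So did the 2 same-numbered pairs of WT and TET2-KO B-2 libraries (0.17 and 0.36), too few to read the number as a pairing. In the other comparisons at least 1 pair was at 0.1 or below. The block changed no other call.

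Without the libraries labelled WT 1 and WT 2, 0 genes passed for B-1a TET2-KO over WT and 500 for B-1a over B-1b in WT mice. Plcg2 and Pik3ap1 in B-1a TET2-KO over WT were at 0.061 and 0.19, Cd79a, Cd79b and Lyn in B-1b cells at 0.045, 0.0081 and 0.082, and Pik3ap1 in B-2 cells at -0.24. In the interaction Cd79b and Pik3ap1 were at -0.022 and 0.092, and Pik3ap1 in B-1a over B-1b of WT mice was at -0.40.

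Leaving out each library in turn gave 0 to 6 genes for B-1a TET2-KO over WT and 0 to 576 for B-2 TET2-KO over WT, the 576 when B-2 WT 1 was the lone WT library, 0 to 2 members and 608 (without B-2 TET2-KO 2) to 2015 genes (without B-1b TET2-KO 3) for B-1a over B-2, 177 to 768 genes for B-1b over B-2 and 15 to 57 for B-1a over B-1b in TET2-KO. In B-1a TET2-KO over WT, Lyn ran from -0.20 to 0.13, Plcg2 from -0.10 to 0.038 and Pik3ap1 from -0.56 to 0.075. In B-1b cells Cd79a ran from -0.35 to 0.013, Lyn from -0.034 to 0.067, Plcg2 from -0.01 to 0.26 and Pik3ap1 from -0.045 to 0.29. Pik3ap1 ran from -0.24 to 0.53 in B-2 TET2-KO over WT and from -0.26 to 0.38 in B-1a over B-1b of WT mice. Cd79b ran from -0.16 to 0.15 in the interaction and from -0.17 to 0.16 in B-1a over B-1b of TET2-KO mice. In B-1a over B-2, Cd81 ran from -0.17 to 0.15 and Blnk from -0.13 to 0.045, and Btk in B-1b over B-2 from -0.17 to 0.062. The log2 ratio of Cd79a to Cd79b differed by -0.17 to 0.0105 for B-1a and -0.0105 to 0.036 for B-1b TET2-KO over WT, by -0.20 to 0.032 for B-1a over B-2 and by -0.18 to 0.0041 for B-1a over B-1b in TET2-KO, where B-1a TET2-KO 4 turned the sign.

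Every member had at least 584 counts in each library, and the part of depth in the levels was not tested. The groups of 2 to 4 libraries, the 5 libraries that went against their labels, and the macrophage markers in every library limit what the comparisons can show.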
